A study of Homo sapiens with 20 samples.

Results

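The guides uid_4840 to uid_6211 close the guide library that was screened in A375 cells. They were set by their numbers, with earlier results of these data known, and they are 1372 guides beside 4839 others in the table of that screen. The 4839 guides before them run in grids of 11 by 11 places, with 39 whole grids and a last one that lacks 1 guide. A375 is a human melanoma line, engineered here to express RfxCas13d under doxycycline. All 6 libraries come from such cells, infected with the guide lentivirus in separate replicates and selected with puromycin. Induction with doxycycline is counted from day 0. There were 3 libraries at day 0 of induction and 3 at day 14, made by amplicon sequencing of guide cassettes in genomic DNA. The days thus differ in time under doxycycline as well as in time of culture. The labels call the library a dual titration without saying what was titrated. No group without RfxCas13d, and no day 14 group without doxycycline, was used here. The labels do not say whether a replicate number at day 14 continues the infection of that number at day 0.

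RfxCas13d is an RNA-guided nuclease that cuts RNA, not DNA, where its guide pairs with a transcript. In a pooled fitness screen each cell carries a guide in its genome, so the share of amplicon reads for a guide follows the share of cells that carry it. Guides that slow growth or kill cells become rare over the culture. Guides without effect keep their proportions to each other, and their share of the reads can grow as other guides are lost. The table used here carries guide numbers and abundances. The guides are therefore named by number, and sequences and target genes were not analysed here.

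The values are normalised abundances as the authors deposited them, and reads could be worked back from them because the values of a library climb in equal steps. The whole table held between 494672 and 1684142 such reads per library, and the members between 180081 and 331429. The median member had 130 to 224 reads at day 0 and 125 to 213 at day 14. The members took 19.1% to 20.7% of the reads at day 0 and 37.5% to 37.9% at day 14. Intervals from reads would cover counting error only, since the reads carry no molecular identifiers.

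As a group the 1372 guides kept their level on the deposited scale while most of the other guides, 3108 of 4839 (64.2%), fell. The median abundance of the members was 166, 168 and 168 in the 3 libraries taken at the start and 168, 164 and 163 in those taken after 14 days. Among the other guides the day 0 medians were 183, 181 and 205, and by day 14 they had dropped to 44.3, 41.6 and 42.4. Within each library, the median log2 abundance of the members less that of the other guides averaged -0.18 ± 0.09 (SD, n = 3) before the culture and 1.95 ± 0.03 (SD, n = 3) after it. This difference of 2.12 on the log2 scale does not depend on how libraries are scaled against each other. All 3 day 14 libraries lay above all 3 day 0 libraries, and the exact permutation test (two-sided) gave p = 0.1, which 20 regroupings of 6 libraries cannot undercut. The values stepped up at the border, where the end of a grid meets the start of the members. The last guides of the grids, uid_4837, uid_4838 and uid_4839, changed by -5.77, -5.93 and -4.70 on the log2 scale. The first members, uid_4840, uid_4841 and uid_4842, changed by 0.55, 0.06 and 0.46. Over 39 whole grids, columns 1 to 3 of grid row 1 averaged 0.13, 0.09 and -0.03. The start of a grid thus also lay near 0, and this step alone does not set the members apart.

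On the deposited scale most members lay near 0, but not all of them. How near to 0 they lie depends on that scale, whose normalisation is not given in the sources used here. The log2 difference of day 14 less day 0 had a median of 0.03 and a mean of -0.05 over the 1372 guides. Its middle part was narrow, with quartiles at -0.34 and 0.37, and 895 guides (65.2%) lay within 0.5 of 0. Its lower end was long. The 1st percentile was at -2.91 and the lowest guide at -5.44, against a 99th percentile of 1.27 and a highest guide of 1.73. By limma, fitted over the whole table with Benjamini-Hochberg adjustment over all guides and a threshold of 0.05, 73 members (5.32%) fell and 47 (3.43%) rose. Of all guides in the table, 51.2% were called lower and 1.63% higher. Of the 73, 69 changed by -1 or less, and of the 47, 39 changed by 1 or more, against 50.5% and 1.11% of the whole table.

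Both counts rest on the scale of the deposited values. With libraries scaled by the trimmed mean over all guides, 19 members were called lower and 1112 higher, because that scaling sets the day 14 libraries against a reference of -1.41 on the log2 scale, taken mostly from the grids, and raises every difference by as much. Since more than 50% of the table changed, the adjusted threshold of 0.05 lay at an unadjusted p of 0.0264, and a member needed no smaller p than that to be called. Guides without any change would pass such a cutoff at a rate of 2.64%, both directions together. The threshold thus holds for the whole table, and the share of false calls among the members can be larger, for the higher calls too. The counts of lower members ranged from 52 to 101, and those of higher members from 20 to 74, when single libraries were left out. The higher members numbered 24, 22 and 20 without day 0 replicate 1, 2 or 3, and 74 without day 14 replicate 3.

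The members spread out between the days. The SD of log2 abundance over the members was 0.50, 0.49 and 0.61 in the day 0 libraries and 1.02, 0.96 and 0.89 in the day 14 libraries. The 2 sets of libraries do not overlap, and the exact permutation test (two-sided) again gave p = 0.1, its lowest possible value. The SD between libraries of 1 day was 0.38 at day 0 and 0.67 at day 14 for the members, while reads alone would give 0.12 and 0.14. The guide uid_5211 shows the size this can reach, with abundances of 359, 18.6 and 28.1 at day 14 after 185, 192 and 229 at day 0. Its difference of -1.81 did not pass the test (adjusted p = 0.0974 by limma), and it was chosen as an example after its values were seen.

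The guides that fell were gathered along the numbers. In 14 bins of 98 consecutive members, mean log2 abundance fell in 5 bins by limma, and 0 rose, where 84.1% of all 63 bins of the table were called lower and 0.0% higher. At an unadjusted p under 0.05 the bins called higher were still 0. The 5 lower bins were neighbours and covered the numbers 5036 to 5525. Their differences ran from -0.15 ± 0.07 (SE, n = 3 per day; adjusted p = 0.0334 by limma) to -0.26 ± 0.07 (SE, n = 3 per day; adjusted p = 0.000313 by limma). The medians of guides within these bins lay between -0.15 and 0.04. In the first of them the median was -0.15 beside a mean of -0.21, and in the other 4 the medians were between -0.03 and 0.04. Between 11 and 16 guides fell in each of the 5 bins, and between 0 and 3 in each of the other 9. Without day 0 replicate 3 or without day 14 replicate 3, 3 bins fell.

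In the data the members fell into 5 successive stretches. Counted from uid_4840, rows of 11 guides, the width of a grid, make 4 stretches of 20 rows each, and a remainder follows. These were named stretch A (uid_4840 to uid_5059), stretch B (5060 to 5279), stretch C (5280 to 5499) and stretch D (5500 to 5719), of 220 guides each, and the tail (uid_5720 to uid_6211) of 492 guides. The place of a guide is its position from 1 to 11 within a row. The labels do not mention stretches, rows or places. They were seen in the values of these guides, so what follows on them is a description without a test, and each p-value below belongs to a single guide in the limma fit over the whole table.

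Of the 73 guides that fell, 31 lay in stretch B and 32 in stretch C. That is 63 of 73 in 440 of 1372 guides. Stretch A held 4, stretch D 5 and the tail 1. The medians of the stretches were close to each other, at 0.07 in A, -0.06 in B, -0.08 in C, 0.13 in D and 0.04 in the tail. The spread of the log2 difference over guides was larger in B and C, with SDs of 0.94 and 1.04, than in A, D and the tail, with SDs of 0.56, 0.64 and 0.47. A difference of -2 or less was seen for 10 guides in B, 19 in C, 1 in A, 1 in D and 0 in the tail. Stretches B and C were not thin at the start, with mean abundances at day 0 whose medians were 197 and 178, against 197 in A, 161 in D and 146 in the tail.

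Within stretches B and C the guides that fell stood at the end of the rows. Places 8 to 11 held 54 lower calls among 160 guides (33.8%), and places 1 to 7 held 9 among 280 (3.21%). All 29 guides of B and C with a difference of -2 or less stood at places 8 to 11. In stretch B the mean over 20 rows was -0.03 at place 1, -0.30 at place 8, -0.51 at place 9, -0.63 at place 10 and -1.23 at place 11. In stretch C it was 0.30 at place 1, -0.50 at place 8, -0.94 at place 9, -0.92 at place 10 and -1.33 at place 11. Place 11 showed no such fall in the other stretches, with means of 0.02 in A and 0.15 in D. The members outside places 8 to 11 of B and C numbered 1212, and 19 of them (1.57%) were called lower.

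Each library showed this change along the row. At place 11 of stretch B, the geometric mean abundance over 20 rows was 203, 195 and 202 at day 0 and 90.1, 87.3 and 79.1 at day 14. At place 11 of stretch C it was 160.4, 169 and 182 at day 0 and 71.3, 64.6 and 67.1 at day 14. At place 1 of stretch B the days had 194, 196 and 189, then 201, 192 and 176, and at place 1 of stretch C 153.8, 161 and 158, then 186, 201 and 194. The days were thus apart at place 11 of both stretches, with day 14 lower. At place 1 they overlapped in B, and in C day 14 was the higher. Place 9 of stretch B overlapped too, where day 14 replicate 1 had 197 and day 0 204, 187 and 196. Within a library, where scaling plays no part, the mean log2 abundance of places 9 to 11 less that of places 1 to 3 in stretch B moved from 0.03 ± 0.05 (SD, n = 3) at the start to -0.86 ± 0.24 (SD, n = 3) at day 14. In stretch C it moved from 0.06 ± 0.06 (SD, n = 3) to -1.18 ± 0.15 (SD, n = 3). In stretch A it moved from 0.02 ± 0.00 (SD, n = 3) to 0.15 ± 0.04 (SD, n = 3), and in stretch D from -0.05 ± 0.03 (SD, n = 3) to 0.23 ± 0.08 (SD, n = 3), a small change in the other direction. A part of this change comes from a single guide of each stretch at row 4, place 2, uid_4874 with -4.68 in A and uid_5534 with -5.44 in D. These lower the mean of places 1 to 3.

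The fall at the row ends was carried by some rows and was small or absent in others. In 8 of 20 rows, which were rows 4, 6, 11, 12, 14, 15, 19 and 20, the mean difference over places 9 to 11 was -1 or less in both stretches. Row 20 had -2.91 in B and -2.50 in C, row 12 had -2.31 and -2.70, and row 19 had -2.09 and -3.61. Row 3 reached -1.12 in C and -0.05 in B. The other 11 rows stayed above -1 in both. Some of them lay between, such as row 13 with -0.82 and -0.62 and row 1 with -0.51 and -0.58. Others did not fall, such as row 2 with 0.47 and 0.28 and row 18 with 0.36 and 0.43. In stretches A and D, 0 rows reached -1.

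Guides at the same row and place of stretches B and C often fell together. At 22 positions both guides were called lower, which is 71.0% of the 31 in B and 68.8% of the 32 in C. These positions were 3 at place 8, 5 at place 9, 6 at place 10 and 8 at place 11. Over the 220 positions the log2 differences of B and C had a Pearson r of 0.77 and a Spearman rho of 0.59, and r was 0.66 after row and place means were removed. All guides come from the same 6 libraries, so these values describe likeness between guides and not between replicates. For A and D r was 0.57, and 0.36 over 219 positions without row 4, place 2. Across the remaining pairs r was -0.01 for A and B, -0.04 for A and C, -0.06 for B and D and -0.09 for C and D.

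The guides that fell farthest in stretches B and C stood at places 9 to 11 of these rows. In stretch C, uid_5488 (row 19, place 11) had abundances of 150.5, 143 and 118 at day 0 and 3.95, 1.77 and 4.88 at day 14, a log2 difference of -5.39 ± 0.46 (SE; adjusted p = 1.1e-06 by limma). Its partner in stretch B, uid_5268, changed by -3.59. In stretch B, uid_5103 (row 4, place 11) had 206, 171 and 250.0 at day 0 and 4.94, 10.97 and 2.29 at day 14, a difference of -5.37 ± 0.60 (SE; adjusted p = 1.04e-05 by limma). Its partner in stretch C, uid_5323, went from 198, 129.8 and 136 to 16.7, 8.67 and 11.3, a difference of -3.69. The day 14 values lay far below the day 0 values in all 3 libraries for these guides. Because the lowest values of uid_5488 and uid_5103 are a few reads, their sizes depend on the smallest value allowed, and with 10 added before the log they were -3.44 and -3.79.

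Others among the lowest were uid_5431 (C, row 14, place 9), uid_5279 (B, row 20, place 11) and uid_5409 (C, row 12, place 9). The abundance of uid_5431 was 129.6, 156 and 178 at day 0 and 15.8, 6.37 and 7.46 at day 14, a difference of -4.08 ± 0.54 (SE; adjusted p = 3.82e-05 by limma). That of uid_5279 was 231, 215 and 251 and then 14.8, 10.97 and 29.4, a difference of -3.78 ± 0.53 (SE; adjusted p = 6.35e-05 by limma). That of uid_5409 was 116, 153 and 149 and then 11.8, 13.3 and 7.46, a difference of -3.72 ± 0.51 (SE; adjusted p = 4.97e-05 by limma). The days did not overlap for any of the 3. The lowest level of a library was touched by 4 members in at least 1 day 14 library, which were uid_4874, uid_5103, uid_5488 and uid_5534, and by 0 members in all 3. Among the other guides 882 touched it in at least 1 library and 128 in all 3.

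Neighbouring numbers fell together inside these rows. There were 9 runs of 3 or more consecutive lower guides, holding 33 of the 73, and all 9 lay in B or C and ended at place 11. The longest run was of 5 guides in row 6 of stretch C, where uid_5341, uid_5342, uid_5343, uid_5344 and uid_5345 changed by -1.15, -1.41, -2.64, -2.36 and -2.80. Row 20 held a run of 4 in both stretches. In B, uid_5276, uid_5277, uid_5278 and uid_5279 changed by -1.96, -2.18, -2.76 and -3.78, and in C, uid_5496, uid_5497, uid_5498 and uid_5499 by -2.56, -2.31, -2.25 and -2.93. The day 14 values of uid_5496 were 194, 5.60 and 29.4, so its days overlapped in 1 library. The other runs of 4 lay in rows 14 and 19 of stretch C. There uid_5430 to uid_5433 changed by -1.11, -4.08, -3.58 and -2.99, and uid_5485 to uid_5488 by -2.47, -2.43, -3.02 and -5.39.

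The remaining runs, of 3 guides each, lay at places 9 to 11 of rows 12 and 15 in both stretches. In row 12, uid_5189, uid_5190 and uid_5191 of stretch B changed by -2.998, -1.02 and -2.90, and uid_5409, uid_5410 and uid_5411 of stretch C by -3.72, -1.70 and -2.68. The middle guide fell least in both. In row 15, uid_5222, uid_5223 and uid_5224 changed by -1.74, -1.12 and -2.02, and uid_5442, uid_5443 and uid_5444 by -1.87, -1.14 and -2.33. Again the middle guide fell least in both. The abundances of uid_5190 went from 196, 188 and 177 to 102.4, 92.2 and 83.7, a fall without overlap of the days, and those of uid_5189 beside it were 168, 145 and 129.6 and then 16.7, 19.4 and 19.1.

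Among the lower guides of these runs, 7 lost their call when a single library was left out. For uid_5190 and uid_5223 this was day 0 replicate 1 or 2, for uid_5341 day 0 replicate 1, for uid_5430 day 0 replicate 2 or 3 and for uid_5497 day 0 replicate 2 or 3. The highest adjusted p by limma without a library was 0.075 for uid_5190, 0.0716 for uid_5223, 0.0859 for uid_5341, 0.0873 for uid_5430 and 0.074 for uid_5497. For uid_5443 every library but day 14 replicate 2 had this effect, with a p of up to 0.178 by limma, and for uid_5496 every library but day 14 replicate 1, with a p of up to 0.13 by limma. Without day 14 replicate 1 the difference of uid_5496 was -3.87, and without day 14 replicate 2 it was -1.31. The 8 lowest members kept their call without any single library.

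The profile of stretches B and C resembled the first row of the grids. Over the 39 whole grids, the mean log2 difference in grid row 1 was 0.13 at column 1, -0.60 at column 8 and -1.69 at column 11. When row n of a stretch was set beside grid n, stretch B and row 1 of grids 1 to 20 had an r of 0.68 over 220 positions, and stretch C 0.74. With grids 21 to 39 the values were 0.61 and 0.61 over 209 positions. With column 1 of grids 1 to 20 they were -0.08 and -0.07. The pairing of rows with grids by order is not given by the labels, and the points share the same 6 libraries.

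Stretches A and D held 9 lower and 18 higher guides among 440, and their deepest falls stood at the same position, row 4, place 2. In stretch A, uid_4874 had abundances of 259.9, 202 and 162 at day 0 and 1.98, 13.3 and 19.1 at day 14, a difference of -4.68 ± 0.77 (SE; adjusted p = 0.000214 by limma). In stretch D, uid_5534 had 152, 131 and 209.6 at day 0 and 8.87, 2.53 and 2.29 at day 14, a difference of -5.44 ± 0.56 (SE; adjusted p = 5.33e-06 by limma), the lowest of all members. All 3 day 14 libraries lay far below day 0 for both guides. With 10 added before the log the differences were -3.41 and -3.59. The guides beside them were not called lower, with -0.20 for uid_4873, 0.87 for uid_4875, 0.60 for uid_5533 and 0.38 for uid_5535.

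Low values also stood at the matching place of grids 4 and 24, which were picked to match row 4, place 2. Row 2 of the other grids was not set out singly. Over the 39 whole grids the mean at column 1, row 2 was -0.13. In grid 4 the mean over row 2 was -3.64, against -0.88 in row 1 and -2.02 in row 3, and in grid 24 it was -4.79, against -0.81 and -3.20. In column 1 of those grids, row 2 had -3.82 and -4.37, while the other rows ran from -2.29 to 0.31 and from -1.71 to 0.38. With column 1 of grids 1 to 20, A had an r of 0.24 and D of 0.23, and 0.09 and 0.07 without that position. With row and place means removed, r was 0.35 for A and 0.33 for D, and 0.21 and 0.18 without that position. Spearman's rho was 0.09 for both, and 0.07 for A and 0.08 for D without it. With column 1 of grids 21 to 39, Pearson's r was 0.30 for A and 0.30 for D, and 0.12 and 0.11 without that position.

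At 1 other position both A and D were called lower, row 18, place 11, where uid_5037 changed by -1.81 and uid_5697 by -1.57 (adjusted p = 0.00446 and 0.012 by limma). The 2 shared positions are 50% of the 4 lower guides in A and 40% of the 5 in D. At 3 positions both rose. These were uid_4850 with uid_5510 (1.04 and 1.03), uid_4971 with uid_5631 (1.101 and 1.46) and uid_5033 with uid_5693 (1.05 and 0.94). The lower guides of A and D without such a partner were uid_4883 (-1.40), uid_4915 (-0.97), uid_5598 (-1.28), uid_5644 (-1.20) and uid_5710 (-1.20). Place 2 of stretch D held 3 of its 5 lower guides, which were uid_5534, uid_5644 and uid_5710. Except for row 4, place 2, the guides of A and D named here outside the highest group were picked after their values were seen.

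The tail had the smallest SD of the 5 stretches, but not the largest share of guides near 0. Its 492 guides ran from -1.13 to 1.68, and 351 of them (71.3%) lay within 0.5 of 0, against 76.4% in stretch A. The medians of their abundances were between 144.9 and 148.1 in all 6 libraries. Medians this even can come from guides without a change or from a scale set on these guides. The sources used here do not state the scale, so the 2 cannot be told apart. In the tail 1 guide (0.203%) was called lower and 9 (1.83%) higher, against 51.2% and 1.63% of the whole table. An unadjusted p under 0.05 by limma was seen for 22 of its 492 guides, a count that guides without a change could also give. The lower one, uid_5869, had 181, 107 and 235 at day 0 and 64.0, 96.8 and 76.0 at day 14, a difference of -1.09 (adjusted p = 0.0381 by limma), with the days close to each other in the second library of each. Below the lowest value of the tail lay 26 guides of stretch B, 30 of C, 3 of A and 5 of D. Between neighbours in the tail the log2 difference had a correlation of -0.00 over 491 pairs, and in stretches A and D it was 0.04 and 0.06 over 219 pairs each. In stretches B and C it was 0.34 and 0.46, again over 219 pairs each.

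The guides called higher lay in all 5 stretches and changed less than those that fell. The 47 higher guides had a median of 1.12 and a range from 0.83 to 1.73, where the 73 lower ones had a median of -1.87 and a range from -5.44 to -0.84. All 3 day 14 values lay above all 3 day 0 values for 43 of the 47, and all 3 below for 71 of the 73. These guides were called on the same values, so the lack of overlap adds no support. Of all 1372 members the days did not overlap for 142 guides that were lower and 106 that were higher, against 55.1% and 3.9% of the whole table. Guides without a change also give such orders, in either direction, among the 20 regroupings of 6 libraries. By stretch the higher guides numbered 9 in A (4.09%), 13 in B (5.91%), 7 in C (3.18%), 9 in D (4.09%) and 9 in the tail (1.83%). Over the whole table the share was 1.63%, so that of the tail was close to it. The higher calls of the tail are thus not read as a result about its guides. Places 1 to 7, which are 7 of the 11 places, held 12 of the 13 in stretch B, 5 of the 7 in C, 4 of the 9 in A and 3 of the 9 in D. Place 9 of stretch D held 4 of them, with a mean difference of 0.38 over its 20 guides. Of the 47, 39 had no called neighbour in the same direction.

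Among the highest, uid_5108 (B, row 5, place 5) had abundances of 169.7, 214 and 158 at day 0 and 636, 554.5 and 537 at day 14, a difference of 1.68 ± 0.33 (SE; adjusted p = 0.000812 by limma). The day 14 values were close to each other and all above day 0. The same held for uid_5174 (B, row 11, place 5), with 140.5, 171 and 120.6 and then 502, 384 and 488, a difference of 1.67 ± 0.31 (SE; adjusted p = 0.000586 by limma). Its partner in stretch C, uid_5394, rose by 1.16 (adjusted p = 0.0155 by limma). In stretch D, uid_5631 had 142, 117 and 146 and then 283, 434 and 409, a difference of 1.46 ± 0.31 (SE; adjusted p = 0.00152 by limma). The days did not overlap for any of the 3 guides measured in full here.

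Other high guides rested on low starts or on uneven libraries. The highest of all, uid_5263 (B, row 19, place 6), had 24.4, 68.0 and 24.2 at day 0 and 220.5, 63.1 and 104.4 at day 14, a difference of 1.73 ± 0.63 (SE; adjusted p = 0.035 by limma), and its days overlapped. In the tail, uid_5911 had 52.8, 47.4 and 27.9 and then 287, 137.5 and 57.9, a difference of 1.68, and uid_6029 had 150.5, 156 and 142 and then 783, 353 and 287, a difference of 1.52. Both were above day 0 in all libraries, with day 14 values far apart. Also in the tail, uid_5876 rose by 1.54 and uid_6116 by 1.38. The 2 runs of 3 higher guides both lay at places 4 to 6 of stretch B. They were uid_5173, uid_5174 and uid_5175 with 1.01, 1.67 and 1.20 in row 11, and uid_5261, uid_5262 and uid_5263 with 1.03, 1.12 and 1.73 in row 19. Rows 11 and 19 are among the 8 rows with low ends. The calls of uid_5173, uid_5175, uid_5261, uid_5262, uid_5263, uid_5876, uid_5911 and uid_6116 were lost without at least 1 library, day 0 replicate 3 among them for all but uid_6116. The highest adjusted p by limma without a library was 0.154 for uid_5173, 0.056 for uid_5261 and 0.114 for uid_5263. The difference of uid_5263 was 1.25 without day 14 replicate 1. The calls of uid_5108, uid_5174, uid_5631 and uid_6029 were kept without any single library.

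The guides at the extremes of the starting pool did not pass the test. The member with the highest mean at day 0, uid_5068, had 372, 238 and 461 at day 0 and 216, 236 and 200.03 at day 14, a difference of -0.67 (adjusted p = 0.13 by limma). The member with the lowest, uid_6185, had 42.8, 30.6 and 24.9 and then 59.1, 12.5 and 24.3, a difference of -0.29 (adjusted p = 0.727 by limma). The first member, uid_4840, had 215, 179 and 228 and then 612, 201 and 222, and the last, uid_6211, 107, 113 and 133 and then 162, 176 and 91.5. Neither passed the test, with differences of 0.55 and 0.23. The member nearest to 0, uid_4961, went from 241, 272 and 145 to 219, 325 and 134, a difference of 0.00.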

How the data were processed

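Guide abundances came from amplicon sequencing of 6 A375 libraries, 3 per day. The authors deposited normalised signal values per guide, and the normalisation is not given in the sources used here. Cutadapt 1.13, Bowtie 1.1.2 and the build GRCh38 are listed in the submitters' processing notes, with no role given. In each library every value less 1 was a whole multiple of 1 step (within 0.01 for 100% of values), from which reads were worked back. Whether the lowest level stands for 1 read or for none was not settled.

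The log2 of the values as deposited was fitted with limma 3.58.1 (R 4.3.3, lmFit and eBayes with a trend) over all guides of the table with day as the term. Benjamini-Hochberg adjustment was over all of them, the threshold was 0.05, and a minimum mean signal of 10 removed 0 guides. The model was also run on simulated data with 1 SD of noise for both days and all guides. The SD between libraries of the members was 0.38 at day 0 and 0.67 at day 14, so that run does not check the calls under the spread seen here. Means of 98 consecutive guides were fitted likewise. Values per library were compared with exact two-sided permutation tests. Replicates are separate infections per the labels' protocols, and the p-values measure the spread between these libraries.

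Named guides are the 8 lowest and 8 highest called, runs of 3 or more, the extremes at day 0, the first, the last and the one nearest 0. Other guides are named as partners or neighbours, or were chosen after their values were seen. The members, stretches and lists were chosen with earlier results of these data known. The planned count models were not run on the worked-back reads, whose added 1 does not meet their conditions, and voom was added in their place after the data were seen. Alternatives covered scaling, added constant, filter, variance prior, bin size, replicate block and each library left out.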

Additional observations from a re-analysis of the deposited data

How the results depend on the processing

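Scaling moved the counts of called guides most, since a scale taken from the whole table follows the grids. Members called lower and higher numbered 19 and 1112 with the trimmed mean, 44 and 191 with the upper quartile and 34 and 542 with total signal. With the median over the members they numbered 73 and 54. The lower calls in stretches B and C, 63 as deposited, were 17, 40 and 32 with the first 3 of these scalings, and those at places 8 to 11, 54 as deposited, were 17, 40 and 32. With the trimmed mean 0 bins were lower and 14 higher, and the log2 differences of uid_5190, uid_5223, uid_5341, uid_5342, uid_5430 and uid_5443 turned to 0.40, 0.29, 0.27, 0.0064, 0.30 and 0.28. Without a variance trend 30 members were higher. The higher bins numbered 1 with bins of 49, with the median over the members and with 10 added before the log. Places 9 to 11 less places 1 to 3 in B and C, day 14 less day 0, was -1.06, and -0.91 with 10 added.

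With single libraries left out, lower members ranged from 52 to 101 and higher members from 20 to 74, lower bins from 3 to 5 and higher bins from 0 to 1. Lower calls in B and C then ranged from 44 to 80 and those at places 8 to 11 from 40 to 64. The difference of members less other guides ranged from 2.07 to 2.16, the change in spread from 0.39 to 0.46, and places 9 to 11 less 1 to 3 from -1.17 to -0.98. Of 54 named guides 49 were called, and 34 kept the call without every single library in turn. Deviations of same-numbered libraries correlated at 0.00, 0.03 and 0.01 over all guides, and at 0.06, 0.04 and 0.00 over the members. Values this small do not settle whether the numbers pair the libraries, since a pairing could be hidden by the spread gained until day 14. With the replicate number as a block, 80 members were lower and 56 higher, of which 71 and 43 were among those of the fit without it, and 4 of 6 libraries matched their own number best. By voom 69 were lower and 45 higher. The count models that were planned were not run. Depth limits the sizes of the deepest falls, which end at a few reads.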
